A study of Capra hircus with 6 samples.

Results

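The plasminogen activators PLAU and PLAT, the urokinase receptor PLAUR and the serpins SERPINE2, SERPINF1 and SERPINB2 were examined by RNA-seq in secondary hair follicle dermal papilla cells (SHF-DPCs) of the cashmere goat after treatment with all-trans retinoic acid (ATRA). The 6 genes were taken by their symbols, and they were chosen with earlier results of these data known. They correspond to 7 of the 15944 rows of the deposited count table, because SERPINB2 is listed under 2 loci, LOC102181552 and LOC102170373. All 7 passed the filter on low counts, which left 12588 genes for testing.

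Plasmin is a broad protease that dissolves fibrin and degrades pericellular matrix, and it is made from plasminogen by urokinase (PLAU, uPA) or by tissue-type plasminogen activator (PLAT, tPA). Urokinase is concentrated on the cell surface by its receptor (PLAUR, uPAR), and both activators are inactivated by serpins, suicide inhibitors that trap a protease in a covalent complex. The system is known for its part in fibroblast migration and in the remodelling of matrix around the follicle during the hair cycle.

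The cells were wild-type primary cultures from scapular skin of Albas cashmere goats 3 years of age, used at passages 4 to 7, and the paper's methods give 3 animals for the sequencing. The ATRA-treated group (3 libraries) received 0.1 mM ATRA, the vitamin A metabolite that activates retinoic acid receptors, for 24 h. The control group (3 libraries) was cultured in standard medium without ATRA. Neither the labels nor the methods state whether a control culture and an ATRA culture with the same number came from the same animal.

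Total counts per library ranged from 35532339 to 38012771. TMM scaling factors were 0.842 to 0.851 in the control group and 1.16 to 1.20 in the ATRA-treated group, and all values below are CPM (the count relative to the scaled library total) after this scaling. The median log2 fold change (log2FC, ATRA over control) of all tested genes was 0.04, and it was 0.52 when counts were divided by library size alone. The treatment moved most of the transcriptome, with an adjusted p under 0.05 for 79.7% of the tested genes, 40.9% higher and 38.7% lower. Of 10 dermal papilla and mesenchyme markers, 6 were tested and all 6 fell, among them VIM, VCAN and PDGFRA (log2FC -3.59, -5.66 and -2.74). S100A4, LEF1 and PDGFRB fell by less (log2FC -1.92, -0.54 and -0.44). The decrease of PDGFRB depends on scaling, since its counts were 6378, 6579 and 6765 in the control libraries and 6355, 6724 and 6469 with ATRA. The summed level of the 10 markers was 22548 to 24036 CPM in the control libraries and 2178 to 2306 CPM with ATRA. ALPL, CORIN, PROM1 (CD133) and SOX2, which mark the dermal papilla, had at most 16 counts in any library. ACTA2, the smooth muscle actin gene whose protein the study stained for together with CD133, averaged 6582 ± 462 CPM in controls and 8.37 ± 0.829 CPM with ATRA (SD, n = 3 each), although reads of the near-identical ACTG2 may be mixed with its own.

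Of the 7 rows, 2 rose (SERPINE2 and PLAUR), 4 fell (PLAU, PLAT and both SERPINB2 loci) and SERPINF1 did not pass the test (edgeR's quasi-likelihood test, two-sided, adjusted over all tested genes). By the same test 40.9% of all tested genes were higher and 38.7% lower, 79.7% in either direction, so the number called does not set these rows apart. The median log2FC of the 7 rows was -1.93, beside 0.04 over all tested genes. With the study's thresholds of a |log2FC| above 1 and an unadjusted p under 0.05, 1 rose and 4 fell, against 13.7% and 17.3% of all tested genes in those directions and 31% in either. Groups did not overlap for 6 of the 7 rows (2 higher and 4 lower) and for 80.1% of all tested genes (41.2% higher and 39% lower), so separation of the groups alone does not set these genes apart. The plot of all fold changes shows how far into each tail they lie.

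**Figure D1:**
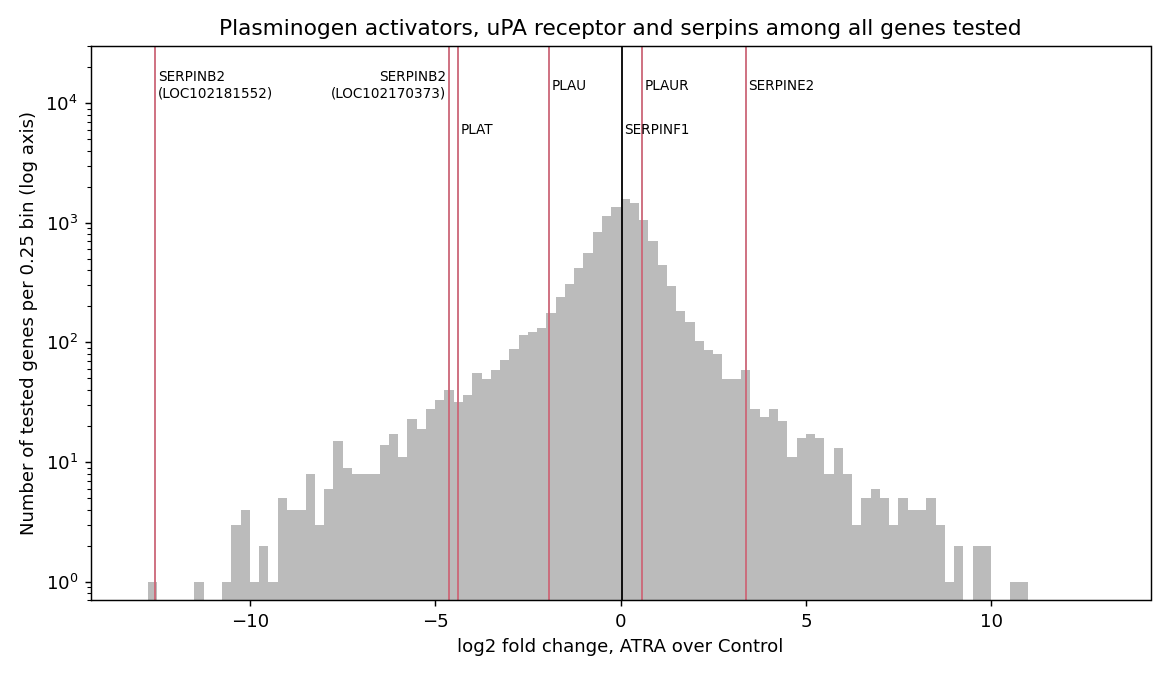
Histogram of the log2FC (ATRA over control) of the 12588 genes tested, with the number of genes per bin on a log axis and vertical lines at the 7 rows examined, red where the adjusted p was under 0.05 and black for SERPINF1. LOC102181552 of SERPINB2 lies at the far left end at -12.55, while PLAUR at 0.58 lies within the central mass.

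PLAU encodes urokinase, the activator that works at the cell surface. Its level was 336, 339 and 329 CPM in the control libraries and 88.1, 83.0 and 91.4 CPM in the ATRA libraries. Every ATRA library lay far below every control library, and the libraries of a group differed by little. The mean fell from 334 ± 5.09 to 87.5 ± 4.21 CPM (SD, n = 3 each), 3.82-fold, with a log2FC of -1.93 (standard error 0.0570, edgeR adjusted p = 4.89e-16).

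PLAT encodes tissue-type plasminogen activator, which is secreted active and works best on fibrin. Its level was 65.4, 71.2 and 72.5 CPM in the control libraries and 3.15, 3.83 and 3.00 CPM with ATRA, on 124 to 169 counts per ATRA library. The transcript was thus well measured in both groups, with no overlap between them. The mean fell from 69.7 ± 3.75 to 3.32 ± 0.445 CPM (SD, n = 3 each), 21.0-fold, with a log2FC of -4.39 (standard error 0.0974, edgeR adjusted p = 7.25e-18). Among the 12588 genes tested, PLAT held rank 293 by size of decrease and PLAU rank 1089.

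PLAUR encodes the receptor that holds urokinase on the plasma membrane by a lipid anchor. It moved the opposite way from its ligand, with 97.0, 81.5 and 89.9 CPM in the control libraries and 136, 128 and 136 CPM in the ATRA libraries. The groups did not overlap, but the gap between them was narrow beside those of the other genes that moved. The mean rose from 89.5 ± 7.75 to 133 ± 4.38 CPM (SD, n = 3 each), 1.49-fold, with a log2FC of 0.58 (standard error 0.0653, edgeR adjusted p = 2.10e-07). This increase depends in size on scaling, since the log2FC was 1.05 with library size only, past the study's threshold of 1.

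**Figure D2:**
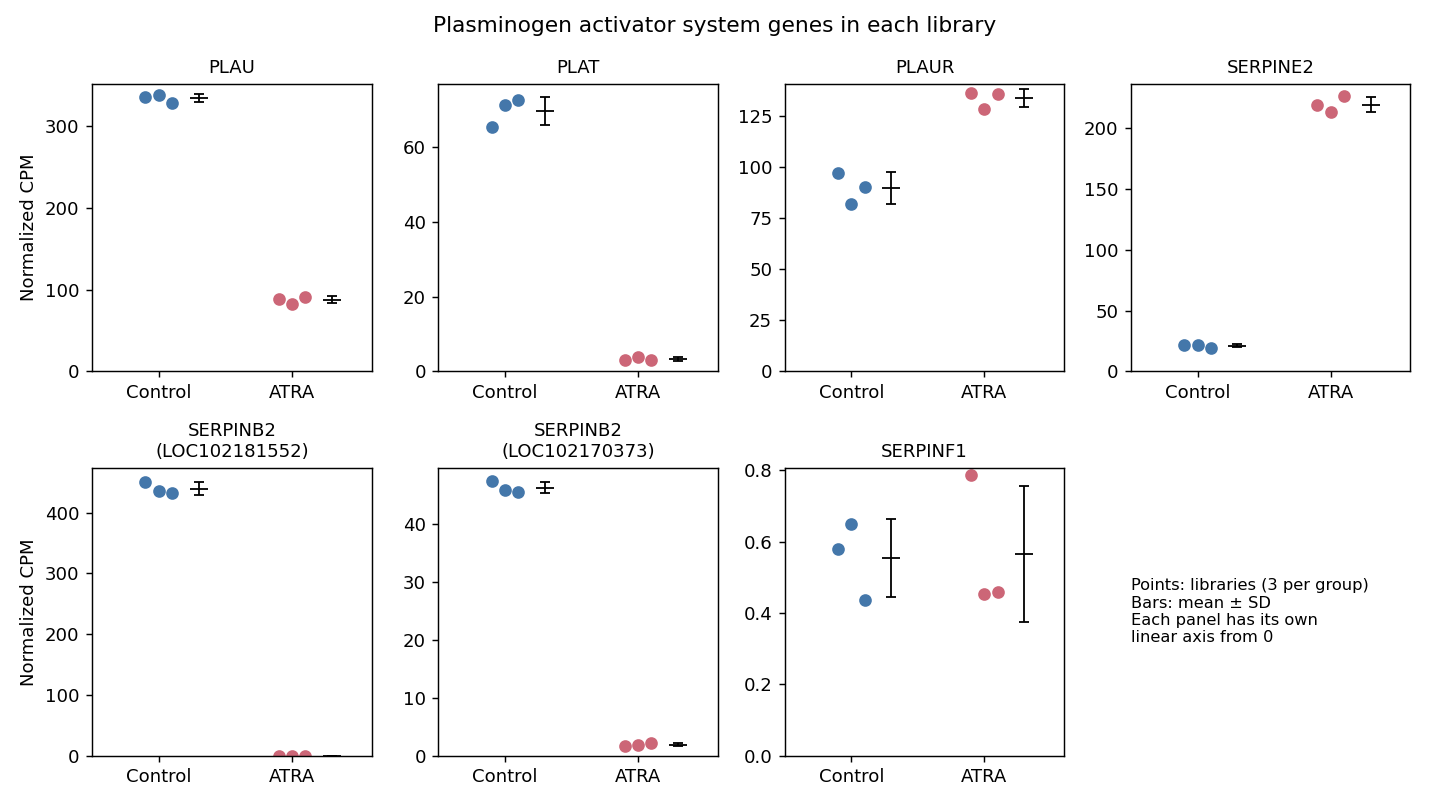
Normalized CPM in each of the 6 libraries (points) with the mean ± SD of each group (bars, n = 3), each panel on its own linear axis from 0. The control and ATRA libraries are apart in every panel except that of SERPINF1, where they overlap.

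SERPINE2 encodes protease nexin-1, a heparin-binding serpin that inhibits thrombin, urokinase and plasmin close to the cell surface. It had 22.1, 21.9 and 19.6 CPM in the control libraries and 219, 214 and 226 CPM in the ATRA libraries. All 3 ATRA libraries sat at a similar high level. The mean rose from 21.2 ± 1.38 to 220 ± 6.48 CPM (SD, n = 3 each), 10.4-fold, with a log2FC of 3.38 (standard error 0.0669, edgeR adjusted p = 1.54e-18). This placed it at rank 281 by size of increase among the genes tested.

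SERPINB2 encodes plasminogen activator inhibitor 2, a mostly intracellular serpin that can also be secreted and then inhibits urokinase. Its locus LOC102181552 had 14005, 14117 and 13866 counts in the control libraries and 2, 3 and 4 counts in the ATRA libraries. The transcript was therefore abundant in reads without ATRA and close to the limit of detection with it. The mean level was 440 ± 10.2 CPM without ATRA and 0.0703 ± 0.0253 CPM with it (SD, n = 3 each). From the summed counts of each group the level was 6287-fold lower with ATRA, with a 95% exact interval from 3312 to 13750.5 that covers counting error only. The fitted log2FC was -12.55 (standard error 0.120, edgeR adjusted p = 2.96e-22) and became -11.80 with a prior count of 2. This was rank 1 by size of decrease among all genes tested. It held rank 1 under 13 of 15 alternatives and rank 2 in the unequal-variance test and without ATRA replicate 1.

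The other SERPINB2 locus, LOC102170373, had 1473, 1486 and 1466 counts in the control libraries and 69, 83 and 88 counts with ATRA. All 3 ATRA libraries lay below all 3 control libraries here too. The mean fell 24.8-fold, from 46.3 ± 0.974 to 1.87 ± 0.265 CPM (SD, n = 3 each). Its log2FC was -4.63 (standard error 0.104, edgeR adjusted p = 8.72e-18). The loci did not fall in proportion. Of the reads counted on SERPINB2, LOC102181552 took 90.5% ± 0.0242 without ATRA and 3.55% ± 0.767 with it (SD, n = 3 each). A two-sided exact permutation test of this share gave p = 0.1, which is the lowest value possible with 3 libraries in each group. With the reads of both loci summed, SERPINB2 went from 486 ± 11.2 CPM down to 1.94 ± 0.290 CPM (SD, n = 3 each), and the log2FC of the sum was -7.97 (standard error 0.0897, edgeR adjusted p = 2.57e-21). How reads shared between similar loci were assigned is not given in the sources used here, so the division of reads between them is uncertain. The sum does not rest on that division, but shared reads that were dropped or assigned to other rows would still affect it.

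In the order of genes of the RefSeq annotation of assembly ARS1.2, LOC102181552 lies between SERPINB7 and SERPINB10, and LOC102170373 lies beside SERPINB8. These neighbours were looked up after the values were seen. SERPINB10 (LOC102181826), an intracellular serpin, had 3009, 3092 and 3086 counts in the control libraries and 3, 2 and 5 with ATRA. Its level was 1238-fold lower with ATRA (95% exact counting interval 673 to 2583), and its fitted log2FC was -10.21 (standard error 0.143). SERPINB7 had at most 1 count in any library and was not tested. SERPINB8 (LOC102169925) had a log2FC of -0.65 (standard error 0.0809, edgeR adjusted p = 7.89e-07), which was -0.17 with library size only and then missed the threshold. The near loss of reads was thus shared by LOC102181552 and the SERPINB10 row next to it, while SERPINB8 kept most of its reads.

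SERPINF1 encodes pigment epithelium-derived factor (PEDF), a serpin without protease inhibitory activity that is known for restraining angiogenesis. It was measured on few reads, with 18, 21 and 14 counts in the control libraries and 34, 20 and 19 with ATRA. The groups overlapped, and 1 ATRA library stood above the other two. The level was 0.555 ± 0.109 CPM in the control group and 0.566 ± 0.191 with ATRA (SD, n = 3 each). The log2FC was 0.03 (standard error 0.350, 95% interval -0.71 to 0.77, edgeR adjusted p = 0.939). The interval holds changes in either direction, and these counts do not tell such changes from no change. The sign turned negative without control replicate 3 and without ATRA replicate 1.

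Ratios within a library do not depend on scaling, and gene length cancels when they are compared between groups. They were compared for 5 pairs as log2 ratios of counts, with 2 added to each count. PLAUR over PLAU, receptor over ligand, was -1.79, -2.05 and -1.87 in the control libraries and 0.63, 0.63 and 0.57 in the ATRA libraries, a difference of 2.51 or 5.71-fold. PLAT over PLAU, the activators, was -2.26 ± 0.0899 in the control group and -4.71 ± 0.253 with ATRA (SD, n = 3 each), so that PLAT fell 5.44-fold more than PLAU. Each ratio separated the groups without overlap (p = 0.1 for each of the 5 pairs by a two-sided exact permutation test, also after Benjamini-Hochberg adjustment, and no lower p is possible here). Each gene of these pairs had already separated the groups by itself, so the separation of the ratios is not separate evidence.

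Activator over SERPINE2 moved by more. PLAU over SERPINE2 went from 3.98 ± 0.0752 to -1.33 ± 0.0300 (SD, n = 3 each), a difference of -5.31 on the log2 scale. PLAT over SERPINE2 went from 1.72 ± 0.160 to -6.03 ± 0.224 (SD, n = 3 each), a difference of -7.75. The direction depends on the inhibitor chosen. Activator over SERPINB2 was not among the pairs, but the summed SERPINB2 (log2FC -7.97) fell further than PLAU (-1.93) or PLAT (-4.39). Relative to SERPINB2, both activators thus went up. Between the inhibitors, SERPINB2 (both loci) over SERPINE2 went from 4.52 ± 0.0747 to -6.80 ± 0.196, a difference of -11.32. Reads of SERPINB2 outnumbered those of SERPINE2 in every control library, and the reverse held in every ATRA library.

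**Figure D3:**
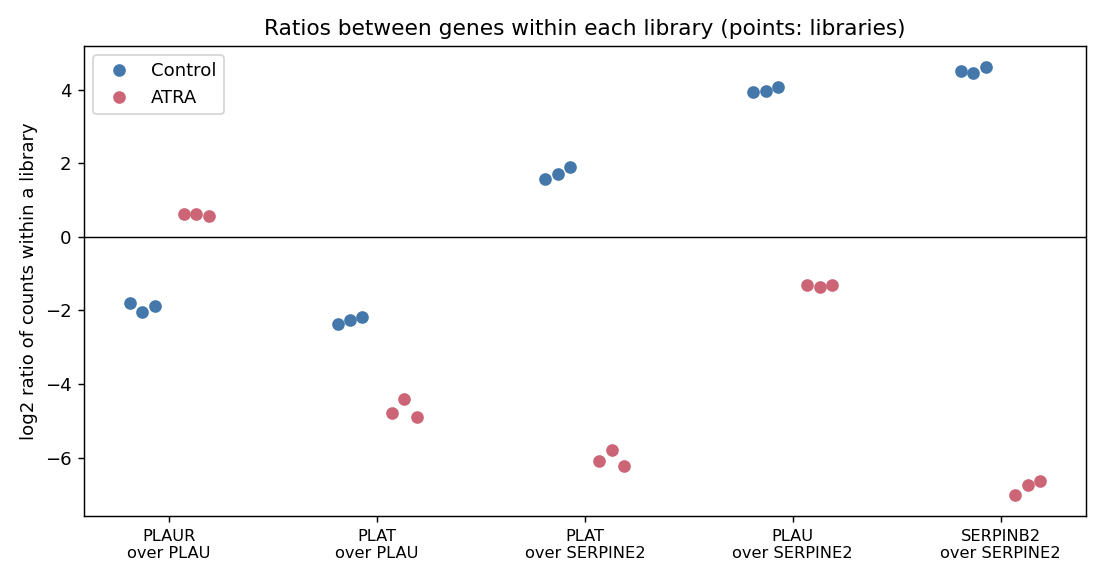
Log2 ratio of the counts of 2 genes within each library, for 5 pairs, with control libraries in blue and ATRA libraries in red. All 3 ATRA libraries lie apart from all 3 control libraries for each pair, and the sign changes for every pair except PLAT over PLAU.

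The other genes of the pathway were described from lists of related genes, whose counts stand beside 40.9% higher and 38.7% lower among all genes tested. SERPINI1 (neuroserpin, an inhibitor of tPA) fell from 2.03 ± 0.333 to 0.794 ± 0.124 CPM (log2FC -1.35, standard error 0.247). Among the serpins described here as inhibitors of plasminogen activators, SERPINI1 and both SERPINB2 loci thus fell while SERPINE2 rose. SERPINA5, SERPINF2, A2M and PZP had no row under their symbols in the deposited counts.

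Of 8 listed rows for plasminogen binding and activation, 4 were tested, of which 1 rose and 3 fell (median log2FC -2.43). S100A10 and ANXA2, which together form a cell-surface complex that binds plasminogen and tPA, both fell, with a log2FC of -3.57 and -2.95 (standard errors 0.0679 and 0.0663). PLGRKT, a membrane plasminogen receptor, fell from 42.1 ± 1.09 to 11.2 ± 0.447 CPM (log2FC -1.91). ENO1, the glycolytic enzyme enolase that also binds plasminogen at the cell surface, rose with a log2FC of 0.30 (standard error 0.0622). F12, KLKB1, HPN and ST14, proteases able to start the cascade, had at most 5 counts in any library and were not tested. PLG itself had no row under its symbol in the deposited counts.

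Of 12 uPAR partners and clearance receptors, 10 were tested, of which 3 rose and 7 fell (median log2FC -0.64), and with library size only 3 rose and 5 fell. CAV1, the caveolae coat protein, fell by 3.98 on the log2 scale, and MRC2, the collagen receptor that associates with uPAR, fell by 2.24. ITGB3, the integrin subunit of the vitronectin receptor, and EGFR rose, with a log2FC of 1.61 and 1.58. LRP1, the endocytic receptor that clears complexes of activator and serpin, had a log2FC of -0.52 (standard error 0.0631), which was -0.04 with library size only and then missed the threshold. Vitronectin (VTN), which binds uPAR, had 0 counts in every control library and at most 1 with ATRA.

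**Figure D4:**
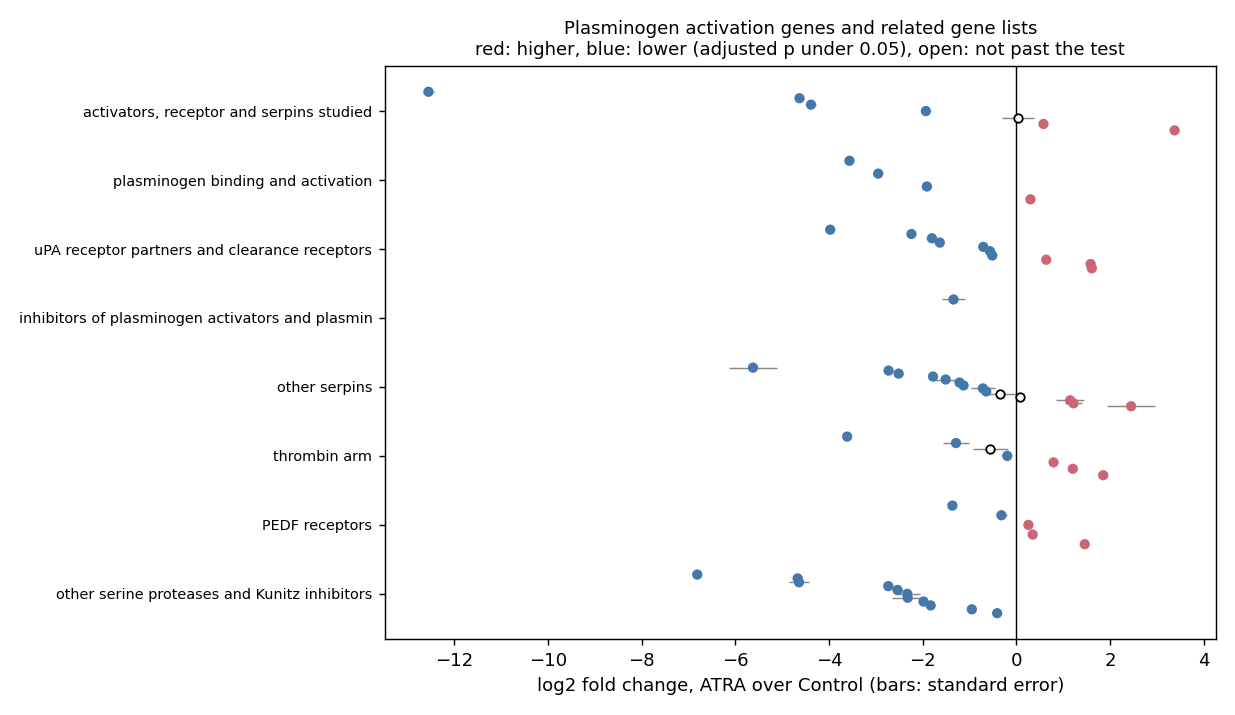
Log2FC (ATRA over control) with its standard error for each tested gene of the plasminogen activator genes examined and of 7 related lists, one list per row. Filled points passed the test (red higher, blue lower) and open points did not. All 11 rows of the list of other serine proteases and Kunitz inhibitors lie left of 0.

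SERPINE2 also inhibits thrombin, and genes of the thrombin pathway moved in both directions. Of 7 tested, 3 rose, 3 fell and F2R did not pass (median log2FC -0.20). The number that fell was 2 in the unequal-variance test, with upper-quartile scaling, without control replicate 1 and without ATRA replicate 1. With library size only 4 rose and 2 fell, and with no filter on low counts 4 fell. F3, which encodes tissue factor, the trigger of coagulation, fell from 52.7 ± 1.24 to 4.30 ± 0.283 CPM (log2FC -3.61). THBD, which encodes thrombomodulin, the receptor that turns thrombin toward anticoagulation, rose from 131 ± 6.54 to 472 ± 25.7 CPM (log2FC 1.85). TFPI2, a Kunitz inhibitor of plasmin and of tissue factor complexes, rose with a log2FC of 1.20, and PROS1, the anticoagulant protein S, fell (log2FC -1.29, standard error 0.268). F2R, the thrombin receptor PAR1, had 12 to 17 counts per library and a log2FC of -0.56 (standard error 0.367, edgeR adjusted p = 0.171).

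All 11 rows of other serine proteases and Kunitz inhibitors were tested and all 11 fell (median log2FC -2.33), beside 38.7% lower among all genes tested. PRSS23, a secreted serine protease, went from 3688 ± 59.4 to 32.8 ± 1.67 CPM (log2FC -6.81, standard error 0.0755). MASP1, a protease of the lectin pathway of complement, fell by 4.67 on the log2 scale. SPINT2, a Kunitz inhibitor, had a log2FC of -0.95, and FAP, a fibroblast surface protease that cleaves the plasmin inhibitor antiplasmin, had -0.41 (standard error 0.0722). With library size only, the log2FC of FAP turned to 0.066 and missed the threshold.

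The receptors described for PEDF are given beside SERPINF1. Of 5 tested rows, 3 rose and 2 fell (median log2FC 0.25). PNPLA2, a triglyceride lipase that binds PEDF, rose from 47.1 ± 6.09 to 129 ± 11.9 CPM (log2FC 1.46). RPSA, the laminin receptor, rose with a log2FC of 0.35, and its value is uncertain because a second near-identical row carries the same symbol. PLXDC2 fell by 1.37 on the log2 scale. LRP6, a Wnt co-receptor counted among those that fell, had a log2FC of -0.32 with groups that overlapped. Its log2FC was -0.18 without ATRA replicate 1 (edgeR adjusted p = 0.148), -0.51 without ATRA replicate 2 and 0.16 with library size only, and it missed the threshold in 7 of 15 alternatives.

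Of the 29 serpin rows described here, 20 were tested. Of these, 4 rose, 13 fell and 3 did not pass (median log2FC -1.17), beside 40.9% higher and 38.7% lower among all genes tested, 79.7% in either direction. The 20 rows include SERPINE2, SERPINF1 and both SERPINB2 loci. Clade B, the intracellular serpins, had 13 tested rows, with 1 higher, 10 lower and 2 that did not pass. SERPINB1, an inhibitor of neutrophil proteases, and SERPINB9, the inhibitor of granzyme B, both fell, with a log2FC of -2.73 and -2.52. The row of SERPINB6 (LOC108633536) had a log2FC of 1.22 (standard error 0.178), while 3 of the other tested SERPINB6 rows fell and 2 did not pass, and how reads were divided among these copies is not known. SERPINE2 had the largest log2FC of these serpins, ahead of SERPIND1, which was measured on 2 to 50 counts per library.

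**Figure D5:**
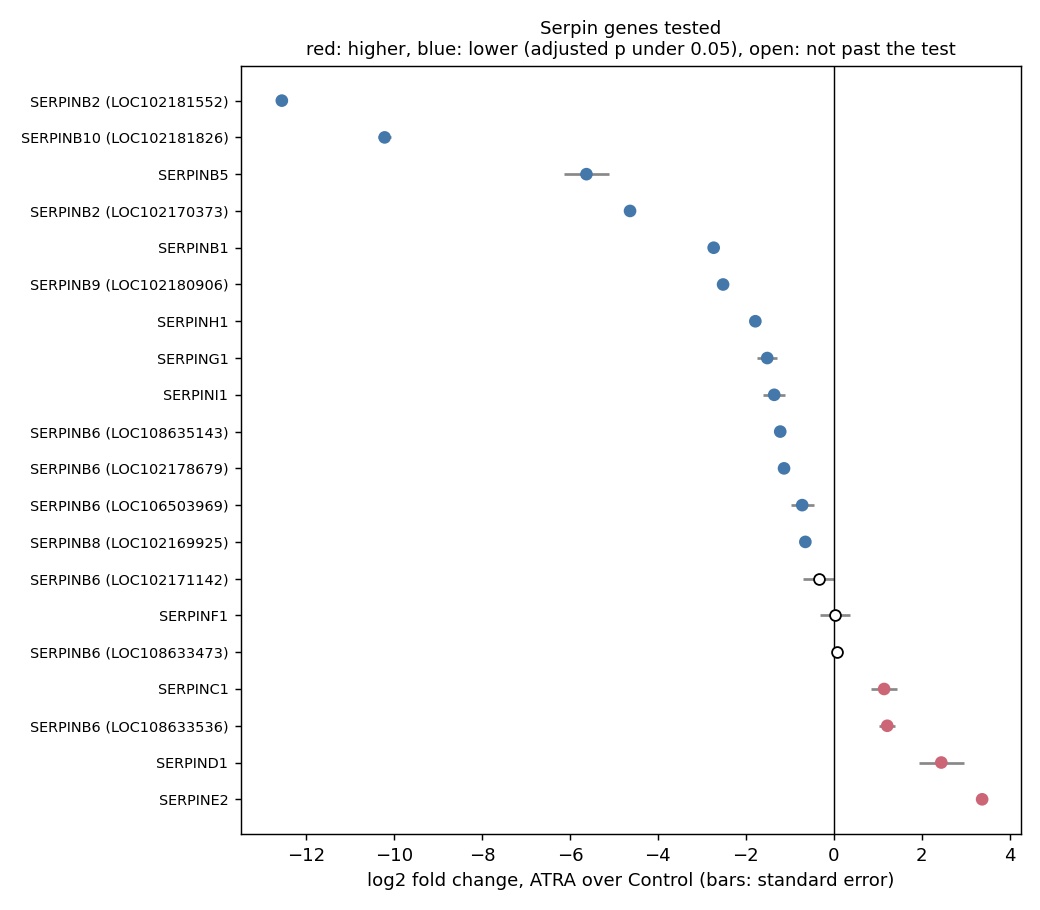
Log2FC (ATRA over control) with its standard error for the 20 tested serpin rows described, ordered by value. SERPINE2 lies farthest right at 3.38 and LOC102181552 of SERPINB2 farthest left at -12.55, and the 3 open points did not pass the test.

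In the annotation deposited with the counts, 5 of the 7 rows (PLAU, PLAT, PLAUR and both SERPINB2 loci) belong to the KEGG pathway complement and coagulation cascades. Of its 58 rows, 36 were tested, with 8 higher and 23 lower (median log2FC -1.23), beside 79.7% of all tested genes called in either direction, 40.9% higher and 38.7% lower. The GO term fibrinolysis held 8 rows, of which 5 were tested and all 5 fell, among them PLAU and both SERPINB2 loci. These terms were chosen after the values were seen and include the genes under study.

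The genes whose pattern was most like each gene were sought by the Euclidean distance between centred log2 CPM over the 6 libraries. The candidates were 8598 genes with a mean of at least 10 CPM, and rows named by a LOC number were left out. The SERPINB10 row (LOC102181826) was therefore not a candidate. With groups this far apart the distance is set mainly by the log2FC. Nearest to PLAU were PLGRKT (distance 0.0617) and TIMP2, a metalloproteinase inhibitor (0.0835). Nearest to PLAT were MYLK and AKAP6 (0.139 and 0.151), nearest to PLAUR were DAP and CTSF (0.0399 and 0.0543), and nearest to SERPINE2 were UAP1 and DDIT4 (0.0749 and 0.113). For LOC102170373 they were C2 and UHRF1 (0.0831 and 0.142). None of these candidates lay close to LOC102181552, whose nearest were C1QTNF3 and MKI67, both at 2.89. SERPINF1, with few counts, had TIMM17B and LSM5 at 0.482 and 0.488.

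In bulk RNA, fewer cells of a type and less RNA per cell cannot be told apart. Markers of other cell types were low in level, but several moved with ATRA. The summed level of the keratinocyte markers was 3.14 to 4.98 CPM in the control libraries and 5.37 to 5.97 with ATRA. KRT10 was the largest part in every library, with 2.55, 4.27 and 2.71 CPM in the control libraries and 5.83, 5.24 and 5.80 CPM with ATRA, while KRT5, KRT14, CDH1, EPCAM and TP63 each averaged under 1 CPM in both groups. For the endothelial markers the range was 0.903 to 1.24 and 6.19 to 9.16 CPM, and CDH5 had at most 1 count in any library. PECAM1, without a count in the controls, reached 242, 340 and 206 counts with ATRA, which gave it rank 1 by size of fitted increase among all genes tested. TEK also rose (log2FC 0.87, standard error 0.297), while VWF did not pass the test (log2FC 0.06, edgeR adjusted p = 0.909). KDR was not tested and went the other way, with 5, 6 and 10 counts in the control libraries and 2, 1 and 0 with ATRA. The leukocyte markers, carried by CD68, summed to 2.69 to 5.86 and 10.7 to 12.01 CPM, and the melanocyte marker PMEL had 3.80 to 4.26 and 1.97 to 2.34 CPM. Their part in the values of the plasminogen activator genes was not tested.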

How the data were processed

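RNA-seq of 3 control and 3 ATRA libraries was analysed from the table the authors deposited, which holds raw read counts per gene that were not normalized. According to the paper's methods, libraries were made from poly(A) RNA bound to magnetic beads, and fastp and TrimGalore were used to clean the reads. The submitters' processing notes name HISAT2, featureCounts and DESeq2 without versions. The genome build, the annotation and the handling of strand and of shared reads are not given in the sources used here. All samples carry the same batch label.

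Low genes were removed with filterByExpr of edgeR, and the rest were scaled by TMM and tested with the quasi-likelihood test (robust, two-sided, no covariate), with Benjamini-Hochberg adjustment over all 12588 genes. Since the values are counts, the unequal-variance form of the t.test named in the paper's methods was only an alternative, on log2(CPM + 1). Fold changes were fitted with 0.125 as prior count, and the standard error of a log2FC is the absolute log2FC over the square root of F. The p-values measure the spread among these cultures. No pair of libraries within a group matched within sampling noise (chi-square per degree of freedom 5.01 to 18.4).

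A gene passed the test with an adjusted p under 0.05. Genes were matched by row name or symbol, and all 15944 row names were found in the RefSeq gene table. Named genes were the 6 genes studied, the 2 highest and 2 lowest log2FC of each list among genes that passed with a mean of at least 1 CPM, set partners (LRP1, VTN, F2R), and the 2 genes nearest to each in pattern. SERPINB10, SERPIND1, the SERPINB6 rows beside the one named, ACTA2 and the marker genes VCAN, PDGFRA, S100A4, LEF1, PDGFRB, VWF and KDR were picked once their values were known. A gene of the lists is not reported here and was left out of the list counts. The genes and lists were chosen with earlier results of these data known.

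The alternatives were DESeq2, the unequal-variance test, RLE, upper-quartile and library-size scaling, other filters, a prior count of 2, 0.5 added per count in the ratios, the fit with single libraries left out, and the replicate number as a block. Summing the SERPINB2 loci was added after seeing the data. The tests were tested on simulated counts. The work used R 4.3.3 with edgeR 4.0.16 and DESeq2 1.42.0, and the plots were drawn with matplotlib 3.10.9.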

Additional observations from a re-analysis of the deposited data

How the results depend on the processing

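PLAU, PLAT, PLAUR, SERPINE2 and both SERPINB2 loci kept their direction and an adjusted p under 0.05 under all 15 alternatives, DESeq2 and the unequal-variance test included. With single libraries left out, the log2FC of PLAUR lay between 0.51 and 0.63 and that of SERPINE2 between 3.31 and 3.40. SERPINF1 passed the test under none of its alternatives, and its log2FC ranged from -0.29 to 0.16 when single libraries were left out (-0.12 without control replicate 3 and -0.29 without ATRA replicate 1) and reached 0.51 with library size only. With library size only, the number of rows past the study's thresholds that rose was 2, the log2FC of LRP6 turned to 0.16 and that of FAP to 0.066, as that setting raises every log2FC. The number of PEDF receptors that fell was 1 with the unequal-variance test, upper-quartile scaling or library size only, and 1 to 2 with single libraries left out, since LRP6 missed the threshold there, which included the fits without control replicate 2 or 3 and without ATRA replicate 1 or 3. RPSA missed it in the unequal-variance test (adjusted p = 0.0550). No pairing of the cultures by replicate number was seen: same-numbered libraries correlated by 0.0949, 0.0141 and -0.0886 in their deviations from the group means, and not every library correlated best with its own number. With 3 libraries in each group, these values cannot settle whether same-numbered cultures came from the same animal. With the replicate block 9992 genes had an adjusted p under 0.05, against 10028 without it, and the log2FC of SERPINF1 was 0.01, with no call changed among the 7 rows studied. Few counts limit the values of SERPINF1, F2R and SERPIND1 and the ATRA levels of LOC102181552 and SERPINB10.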
